A study of Rattus norvegicus with 6 samples.

Results

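The genes described here are Cd276, the gene of B7-H3, and 8 other genes of immune checkpoint pathways, in the livers of rats with liver fibrosis. RNA was sequenced in bulk from 3 liver samples of fibrotic rats dosed with the biflavone ginkgetin, a compound of plants, at 10 mg/kg/day. Another 3 liver samples came from fibrotic rats given vehicle. The sources used here give neither strain, age and sex nor the way fibrosis was brought about, and they do not say whether each sample came from a separate animal. The vehicle libraries are those whose columns carry the letters TAA, which the labels do not explain, so every direction below rests on that assignment. The genes were chosen by name. All 9 named genes, Cd276, Cd274, Pdcd1lg2, Cd80, Cd86, Vsir, Lgals9, Icoslg and Havcr2, were among the 16209 rows of the expression table. All 9 also passed the filter on low values, and 14639 genes were tested in all. Cd276 was picked because it fell in this same comparison, and the other 8 were set beside it to ask whether it fell alone, with results of these libraries already known. The values of all 9 genes are therefore given as a description.

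Immune checkpoints are pairs of surface or secreted proteins that raise or restrain the response of T cells. The B7 family supplies most of the ligands: CD80 and CD86 bind CD28, which activates T cells, and CTLA-4, which restrains them, while PD-L1 and PD-L2 (genes Cd274 and Pdcd1lg2) bind the inhibitory receptor PD-1. ICOS ligand (Icoslg) binds ICOS, and VISTA (Vsir) is an inhibitory protein of myeloid cells and T cells. Galectin-9 (Lgals9) is a secreted lectin that binds TIM-3, and TIM-3 itself (Havcr2) is a receptor, so the set is not made of ligands alone. B7-H3 is made by many cell types besides immune cells, including fibroblasts and epithelia, and its receptor is not settled; the product of Treml2 was put forward as one in the mouse. In bulk liver RNA, fewer cells of a type and less RNA per cell cannot be told apart.

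Values are normalized read counts, meaning reads per gene divided by 1 factor per library. They are not divided by gene length, so levels are compared between groups and not between genes. The libraries held 13372367 to 14933853 reads assigned to genes. Vehicle replicate 3 stood apart: its 15 hepatocyte markers summed to 479148 normalized reads, against 1781779 to 3191884 in the other 5 libraries, and its 16 stellate cell and myofibroblast markers to 134368, against 3966 to 15655. Fold changes without this library are given beside many of those from all 6. All 15 hepatocyte markers were detected in these livers.

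Cd276 was lower in all 3 ginkgetin samples than in any vehicle sample. It had 81.8, 55.5 and 53.2 normalized reads with ginkgetin, against 433, 552 and 654 with vehicle. The lowest vehicle value was 5.29 times the highest ginkgetin value. The mean was 63.5 ± 15.9 with ginkgetin and 547 ± 111 with vehicle (SD, n = 3 samples each). The log2 fold change, a difference of log2(value + 1), was -3.09 (SE 0.287, limma adjusted p = 0.0314). This is the value for which the gene was picked. The values rest on 74, 48 and 43 reads with ginkgetin and on 365, 664 and 1066 reads with vehicle. The vehicle library that stood apart in other genes did not do so here: vehicle values spanned 1.51-fold from lowest to highest, and the log2 fold change without vehicle replicate 3 was -2.95. The call itself was lost with edgeR (adjusted p = 0.0535), with quantile scaling (limma adjusted p = 0.0507), with the replicate block (limma adjusted p = 0.212), and when ginkgetin replicate 1, 2 or 3 or vehicle replicate 2 was left out (limma adjusted p = 0.102, 0.174, 0.208 and 0.259). In each of these fits the fold stayed between -3.29 and -2.95.

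**Figure D1:**
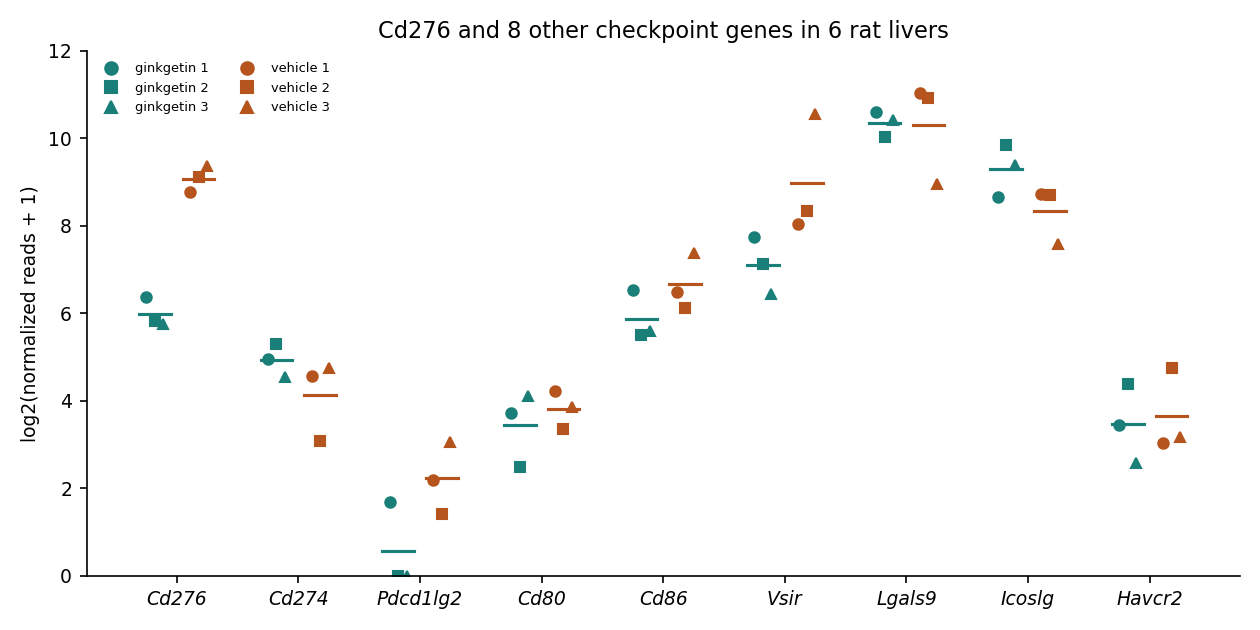
Levels of the 9 genes in each library, as log2(normalized reads + 1) on a linear axis, where each point is 1 library, with ginkgetin left of vehicle, and the short lines are group means of the log2 values. Cd276 and Vsir are the genes whose groups do not overlap, and Cd276 has the wider gap.

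The fold of Cd276 was far from the bulk of genes. Few genes with so large a fall had such close vehicle values. Cd276 was picked for its fall in this comparison, so its place among all genes is a description only. A fold change at or below that of Cd276 was found for 244 of 14639 tested genes, Cd276 included. In 194 of these 244, vehicle replicate 3 was the highest vehicle library. In 10 of them, Cd276 included, the vehicle values spanned no more than the 1.51-fold seen for Cd276. The SD within groups was 0.318 on the log2 scale for Cd276, against a median of 0.523 over all tested genes, and 73.5% of tested genes had a larger one. The other 8 genes of the set had SDs from 0.616 for Cd86 to 1.07 for Vsir.

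The stretches just upstream of Cd276 and Vsir are shown because these were the members whose libraries did not overlap between groups. Each is the 250 bases before the annotated start, from RefSeq with the rat build GRCr8, on the strand of the gene, and promoters were found by symbol for all 9 genes. Cd276 lies on the minus strand (chr8:67863919-67864168) and Vsir on the plus strand (chr20:28824265-28824514). The expression table was made on another build, mRatBN7.2. Capitals mark the GC box GGGCGG on either strand.
Cd276: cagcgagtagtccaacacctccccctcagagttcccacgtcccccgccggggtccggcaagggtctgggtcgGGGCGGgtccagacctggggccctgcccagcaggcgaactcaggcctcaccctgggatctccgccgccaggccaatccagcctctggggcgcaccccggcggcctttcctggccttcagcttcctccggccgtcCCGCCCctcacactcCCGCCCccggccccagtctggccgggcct
Vsir: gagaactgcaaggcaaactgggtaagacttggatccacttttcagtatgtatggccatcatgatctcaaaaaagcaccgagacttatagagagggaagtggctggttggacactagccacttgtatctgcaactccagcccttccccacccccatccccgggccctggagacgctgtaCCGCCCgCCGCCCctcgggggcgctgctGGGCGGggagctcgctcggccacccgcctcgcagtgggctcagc
Each stretch held 3 GC boxes, as did 8.09% of 27457 rat promoters of this length when 3 or more were counted, and 32.4% held at least 1. Of the other 7 genes, Cd274, Cd80 and Icoslg held 1 each, and Pdcd1lg2, Cd86, Lgals9 and Havcr2 held none. In Cd276 the first bases of the boxes lay 178, 44 and 29 bases before the start, and in Vsir 72, 65 and 44. The Cd276 stretch was 73.6% G and C and the Vsir stretch 61.2%, against a median of 52.0% over all promoters. On either strand, neither Cd276 nor Vsir held the core of the interferon-stimulated response element, the AP-1 motif TGANTCA, the NF-kappaB motif GGGNNTTCC or TATAAA. These were found in 3.29%, 6.36%, 5.16% and 13.1% of promoters. The E-box CANNTG, found in 65.2%, had 1 match in Vsir, apart from the GC boxes, and none in Cd276. A match or its absence is a description of these letters only.

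Neither ligand of PD-1 passed the test. Cd274, which encodes PD-L1, had 29.9, 38.2 and 22.3 normalized reads with ginkgetin and 22.5, 7.49 and 25.8 with vehicle. The groups overlapped, and the higher mean was on the ginkgetin side (log2 fold change 0.80, SE 0.587, limma adjusted p = 0.458). It was 1.11 with vehicle replicate 3 left out. Pdcd1lg2, which encodes PD-L2, was close to the limit of detection, with 2.21, 0 and 0 normalized reads with ginkgetin and 3.56, 1.66 and 7.37 with vehicle. That is 2 reads over the ginkgetin libraries and 17 over the vehicle libraries. The vehicle level was 5.96 times the ginkgetin level after scaling (exact 95% interval 1.42 to 53.2, which covers counting error only), and 3.15 times without vehicle replicate 3 (0.516 to 33.1). PD-1 itself, Pdcd1, was at 0 in all libraries but vehicle replicate 3, where it had 2.46 normalized reads, and was not tested.

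The ligands of CD28 and CTLA-4 overlapped between the groups. Cd80 had 12.2, 4.63 and 16.1 normalized reads with ginkgetin and 17.8, 9.15 and 13.5 with vehicle (log2 fold change -0.38, SE 0.636, limma adjusted p = 0.759). The sign of that fold turned with quantile scaling, to 0.28, and the fold was -0.35 without vehicle replicate 3. Cd86 had 91.8, 44.0 and 47.0 with ginkgetin and 89.0, 68.2 and 166 with vehicle. Ginkgetin replicate 1 lay above 2 of the 3 vehicle libraries, and the log2 fold change was -0.79 (SE 0.462, limma adjusted p = 0.358), or -0.43 without vehicle replicate 3. Icoslg leaned the other way, with 400, 921 and 668 normalized reads with ginkgetin against 420, 418 and 192 with vehicle. The log2 fold change of Icoslg was 0.96 (SE 0.405, limma adjusted p = 0.237), or 0.58 with vehicle replicate 3 left out. Ginkgetin replicate 1 lay between the vehicle values, so the Icoslg groups overlapped.

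Vsir was the other member whose groups did not overlap. It had 212, 139 and 85.4 normalized reads with ginkgetin, against 263, 324 and 1503 with vehicle. Vehicle replicate 3 held most of its reads, 2449 of 3060 over the vehicle libraries, and the highest vehicle value was 5.71 times the lowest. The log2 fold change was -1.88 (SE 0.647, limma adjusted p = 0.176). Leaving out vehicle replicate 3 brought it to -1.10. On whole reads, DESeq2 gave Vsir an adjusted p of 0.0207, against 1.33e-15 for Cd276. The corresponding values from edgeR were 0.143 and 0.0535, so neither gene passed 0.05 there.

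Galectin-9 and its receptor showed no common direction. Lgals9 had 1556, 1038 and 1362 normalized reads with ginkgetin and 2094, 1946 and 491 with vehicle. Vehicle replicates 1 and 2 lay above all 3 ginkgetin libraries and vehicle replicate 3 below them. The log2 fold change was 0.05 (SE 0.540, limma adjusted p = 0.969), and it turned to -0.63 without vehicle replicate 3 and to -0.18 with quantile scaling. With equal library totals it was -0.48, where the median of all tested genes was itself -0.53. Havcr2, which encodes TIM-3, had 9.95, 19.7 and 4.95 normalized reads with ginkgetin and 7.12, 25.8 and 7.98 with vehicle. The groups overlapped (log2 fold change -0.18, SE 0.737, limma adjusted p = 0.904). With quantile scaling that fold turned to 0.46, and it was -0.42 without vehicle replicate 3.

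**Figure D2:**
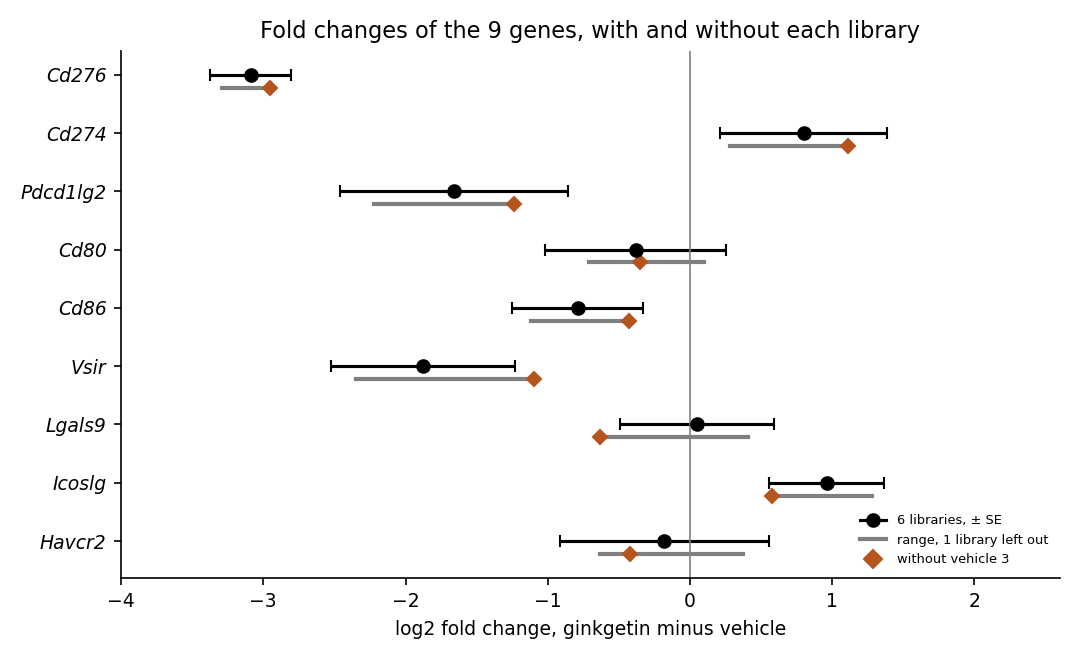
Log2 fold change, ginkgetin minus vehicle, for the 9 genes on a linear axis, where circles with bars are the fold changes from 6 libraries ± SE, grey lines span the fold changes with any 1 library left out, and diamonds are without vehicle replicate 3. Cd276 lies at -3.09 with a span of -3.29 to -2.95, and the spans of Cd80, Lgals9 and Havcr2 cross 0.

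Counted over the set, Cd276 was the only member with a limma adjusted p under 0.05, where the background was 0.0137% of tested genes in either direction, 0.00683% lower and 0.00683% higher. At an unadjusted p under 0.05 there were 2 lower members, Cd276 and Vsir, against 13.2% of tested genes lower, and 1 higher member, Icoslg, against 7.0% higher and 20.2% in either direction. Groups did not overlap in 2 of 9 members, both lower, against 16.1% of tested genes lower, 11.4% higher and 27.4% in either direction. Fold changes were below 0 in 6 of 9 members and in 51.4% of tested genes. Without vehicle replicate 3 there were 3 lower members, Cd276, Vsir and Lgals9, against 10.0% of tested genes, and 0 higher, against 5.68%. Icoslg did not pass in that fit (limma unadjusted p = 0.102). The median log2 fold change was -0.38 over the 9 members and -0.02 over all tested genes. Because the comparison chose Cd276, nothing is read from its part in these counts.

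Relative to each other member, Cd276 was lower with ginkgetin. The log2 level of Cd276 minus the median log2 level of the other 8 was 0.63, 0.43 and 0.70 in the ginkgetin samples. In the vehicle samples it was 3.24, 3.68 and 3.29. Against single members, the difference between the group means ran from -4.05 for Icoslg to -1.21 for Vsir. The groups did not overlap for 7 of the 8 members. For Vsir they did: Cd276 minus Vsir was -1.36, -1.31 and -0.67 with ginkgetin and 0.72, 0.77 and -1.20 with vehicle, with vehicle replicate 3 inside the ginkgetin range. No test is given for these differences, since the fall of Cd276 is part of each.

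**Figure D3:**
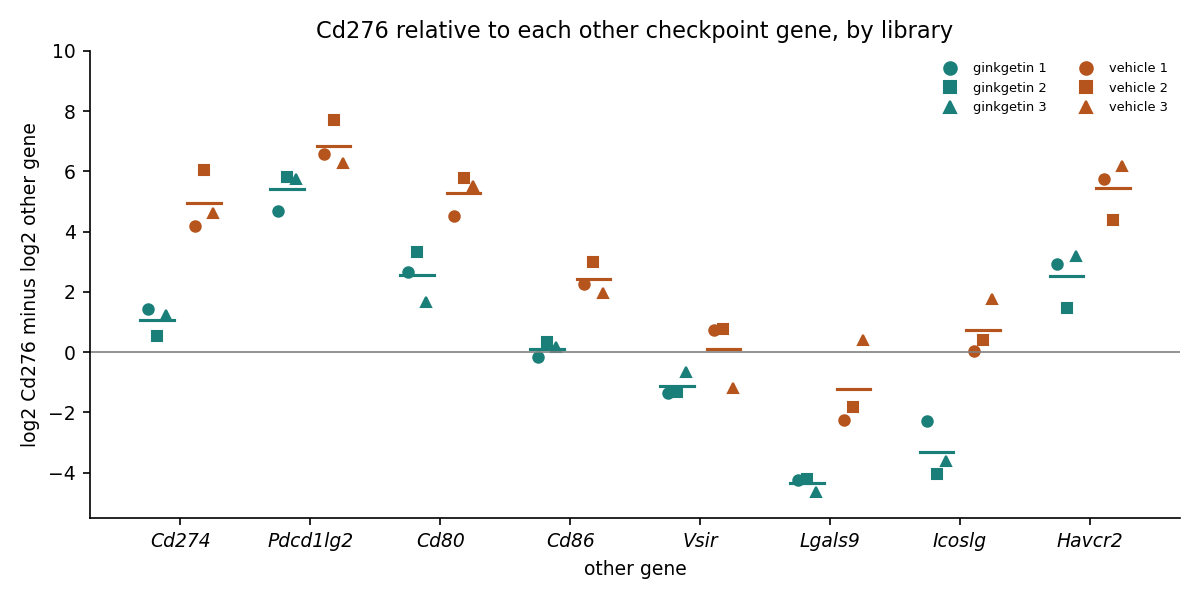
Log2 level of Cd276 minus that of each other gene, by library, with ginkgetin left of vehicle and group means as short lines. The 2 groups are apart for every gene but Vsir, where vehicle replicate 3 lies at -1.20.

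Beyond the 9, 7 lists of checkpoint, galectin and interferon genes were examined, 63 genes in all, of which 53 were tested. In limma 0 of the 53 had an adjusted p under 0.05. At an unadjusted p under 0.05, 14 were lower (26.4%) and 4 higher (7.55%), against 13.2% and 7.0% of all tested genes. Without vehicle replicate 3 these were 17 and 3, against 10.0% and 5.68%. edgeR called 0 and DESeq2 called 9 lower and 1 higher, where DESeq2 called 9.85% of all genes in either direction. The genes named below are those with the smallest p of their list unless stated otherwise.

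Among the receptors and binding partners of the members, 3 of 8 tested were lower at an unadjusted p under 0.05 and 0 higher. Over all tested genes, 13.2% were lower and 7.0% higher. Ctla4, the inhibitory receptor for CD80 and CD86, had 4.42, 1.16 and 3.71 normalized reads with ginkgetin, against 16.6, 17.5 and 36.2 with vehicle (log2 fold change -2.59, SE 0.651, limma adjusted p = 0.111). Icos, the receptor of ICOS ligand, had 1.11, 12.7 and 12.4 with ginkgetin and 24.9, 31.6 and 39.3 with vehicle. Selplg, which encodes the VISTA-binding selectin ligand PSGL-1, had 68.5, 67.1 and 60.6 with ginkgetin and 123, 150 and 206 with vehicle. In these 3 genes the groups did not overlap, where 16.1% of all tested genes were lower without overlap. Leaving out vehicle replicate 3 gave log2 fold changes of -2.24 for Ctla4, -2.0 for Icos and -1.05 for Selplg. Cd28, the activating receptor, and Treml2 overlapped between groups, with log2 fold changes of -0.58 (SE 0.659) and -0.79 (SE 0.588). Without vehicle replicate 3 that of Cd28 was -0.08 and that of Treml2 -0.84, and quantile scaling turned that of Cd28 to 0.18. These low levels limit what could be seen, since 3 reads correspond to 1.84 to 3.71 normalized reads, depending on the library.

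The next list held other B7, nectin and inhibitory ligands, with the enzyme genes Entpd1 and Nt5e among them. Of its 12 tested genes, 4 were lower at an unadjusted p under 0.05 and 0 higher, against 13.2% and 7.0% of all tested genes. Vtcn1, which encodes the B7 family member B7-H4, was at 0 in the 3 ginkgetin libraries and had 8.30, 15.8 and 15.3 normalized reads with vehicle. That is at least 3.76-fold lower against a floor of 3 reads per library, and at least 3.44-fold without vehicle replicate 3, with a limma adjusted p of 0.0688. The galectin genes Lgals3 and Lgals1 and the inhibitory ligand gene Cd200 were the others, and each took most of its vehicle reads from replicate 3. Lgals3 had 388, 147 and 121 normalized reads with ginkgetin and 600, 897 and 10346 with vehicle. The log2 fold changes of Lgals3, Lgals1 and Cd200 were -3.21, -3.82 and -2.25, and -1.94, -2.55 and -1.48 without that library. The ligands Fgl1, which binds LAG-3, and Nectin2 had log2 fold changes of 0.74 (SE 0.533) and 0.38 (SE 0.274), did not pass at either threshold, and were 0.30 and 0.21 without vehicle replicate 3. With equal library totals the fold of Nectin2 was -0.14, where the median of all tested genes was -0.53.

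Of 6 tested costimulatory ligands of the TNF family, counted with CD40, 3 were lower at an unadjusted p under 0.05 and 0 higher. The shares over all tested genes were 13.2% and 7.0%. Cd40, the receptor that licenses antigen-presenting cells, had 50.9, 22 and 18.6 normalized reads with ginkgetin and 77.1, 69.0 and 205 with vehicle. Tnfsf13b, which encodes the B cell factor BAFF, had 18.8, 19.7 and 14.8 with ginkgetin and 46.3, 40.8 and 136 with vehicle. Tnfsf18 was at 0 with ginkgetin, at least 1.90-fold lower than with vehicle, and at least 1.88-fold without vehicle replicate 3. The list median was -1.77, -1.34 with Tnfsf18 at its bound, and -1.22 without vehicle replicate 3. With equal library totals, the median of all tested genes moved to -0.53, so lower values under that scaling are to be read against it.

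A list of other inhibitory receptors also held Tox and Cd226, which are not inhibitory receptors. Of its 10 tested genes, 2 were lower at an unadjusted p under 0.05 and 0 higher, against 13.2% and 7.0% of all tested genes. Tigit, a receptor of T and NK cells, was at 0 in the ginkgetin libraries and had 5.93, 5.82 and 10.4 normalized reads with vehicle, at least 2.11-fold lower (limma adjusted p = 0.0910). That bound was 1.68-fold without vehicle replicate 3. Sirpa, the myeloid receptor for CD47, had 321, 405 and 273 with ginkgetin and 574, 824 and 2159 with vehicle. Its log2 fold change was -1.61, or -1.06 without vehicle replicate 3. Lag3 overlapped between the groups, with 65.2, 49.8 and 61.9 against 77.1, 35.8 and 8.59.

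The interferon-gamma pathway, which induces PD-L1 in many cells, showed no common direction, with a median of 0.02 over 11 tested genes. At an unadjusted p under 0.05, 2 of the 11 were lower and 2 higher, against 13.2% and 7.0% of all tested genes. The receptor chains Ifngr1 and Ifngr2 were lower at that threshold (log2 fold changes -1.23 and -0.83, and -0.71 and -0.62 without vehicle replicate 3). The chemokine genes Cxcl9 and Cxcl11, which interferon-gamma induces, were higher at that threshold (1.57 and 1.67, and 0.91 and 1.03 without vehicle replicate 3), though the groups overlapped in Cxcl11. Cxcl9 had 364, 205 and 503 normalized reads with ginkgetin and 195, 161 and 44.8 with vehicle. Irf1, a transcription factor of the interferon response, lay at 0.00 (SE 0.272). Among the galectin genes beside Lgals9, Lgals8 was higher, with 614, 675 and 565 normalized reads with ginkgetin against 364, 341 and 285 with vehicle (0.91, SE 0.208, limma adjusted p = 0.0995). Of the TIM family beside Havcr2, Timd4, the gene of the phosphatidylserine receptor TIM-4, was higher at an unadjusted p under 0.05. It had 7.74, 16.2 and 7.42 with ginkgetin against 1.19, 0.832 and 3.07 with vehicle (limma adjusted p = 0.156). These values rest on 27 reads with ginkgetin and 7 with vehicle.

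Markers of several cell types moved with Cd276, and their part in its fall was not tested. Over all 8 marker lists, 37 of 111 tested genes were lower at an unadjusted p under 0.05 (33.3%) and 9 higher (8.11%), against 13.2% lower and 7.0% higher over all tested genes. Of 13 tested cholangiocyte markers, 10 were lower at an unadjusted p under 0.05, with a median log2 fold change of -2.31, or -2.10 without vehicle replicate 3. Their summed level was 1460 to 1903 normalized reads with ginkgetin and 3344 to 5177 with vehicle. Of 16 stellate cell and myofibroblast markers, 9 were lower (median -1.96, or -1.17 without vehicle replicate 3), with sums of 3966 to 7473 against 12749 to 134368. Of 10 proliferation markers, 9 were lower (median -2.48, or -1.99 without that library), with sums of 454 to 800 against 816 to 4165. In these 3 lists, and in the dendritic cell list below, the sums did not overlap between groups. Sums are weighted to abundant genes, such as Col1a1 and Col3a1. Taken gene by gene, the groups did not overlap in 9 of 13 cholangiocyte and 9 of 16 stellate cell and myofibroblast markers. They did not in 5 of 10 proliferation and 2 of 10 dendritic cell markers, all lower, against 16.1% of tested genes lower.

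Leukocyte and endothelial lists had medians nearer to 0, and the shares of lower genes among T, B and NK cell markers and among macrophage markers were close to the 13.2% over all tested genes. The shares of higher genes among macrophage and endothelial markers were above the 7.0% over all tested genes. Without vehicle replicate 3, 2 macrophage markers and 1 endothelial marker were higher, against 5.68% of tested genes. Of 20 tested T, B and NK cell markers, 3 were lower and 1 higher at an unadjusted p under 0.05 (median -0.59), with sums of 791 to 1135 with ginkgetin and 1082 to 1896 with vehicle. Of 16 macrophage and Kupffer cell markers, 2 were lower and 3 higher (median -0.47, or -0.09 without vehicle replicate 3). Their sums were 9941 to 18730 against 10927 to 71833. That median covers moves in both directions, with 11 of the 16 lower in mean and 5 higher. Their log2 fold changes ran from -7.20 to 2.63, or from -5.69 to 2.07 without vehicle replicate 3. Of 10 dendritic cell markers, 2 were lower (median -0.56), with sums of 732 to 1234 against 1386 to 2835. Of 11 endothelial markers, 2 were lower and 3 higher (median 0.20), with sums of 5384 to 7306 against 4966 to 6908. Hepatocyte markers ran the other way, with all 15 higher in mean (median 1.20, or 0.51 without vehicle replicate 3) and sums of 2038069 to 3191884 against 479148 to 2517601. No tested marker of these 8 lists was at 0 in all ginkgetin libraries.

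**Figure D4:**
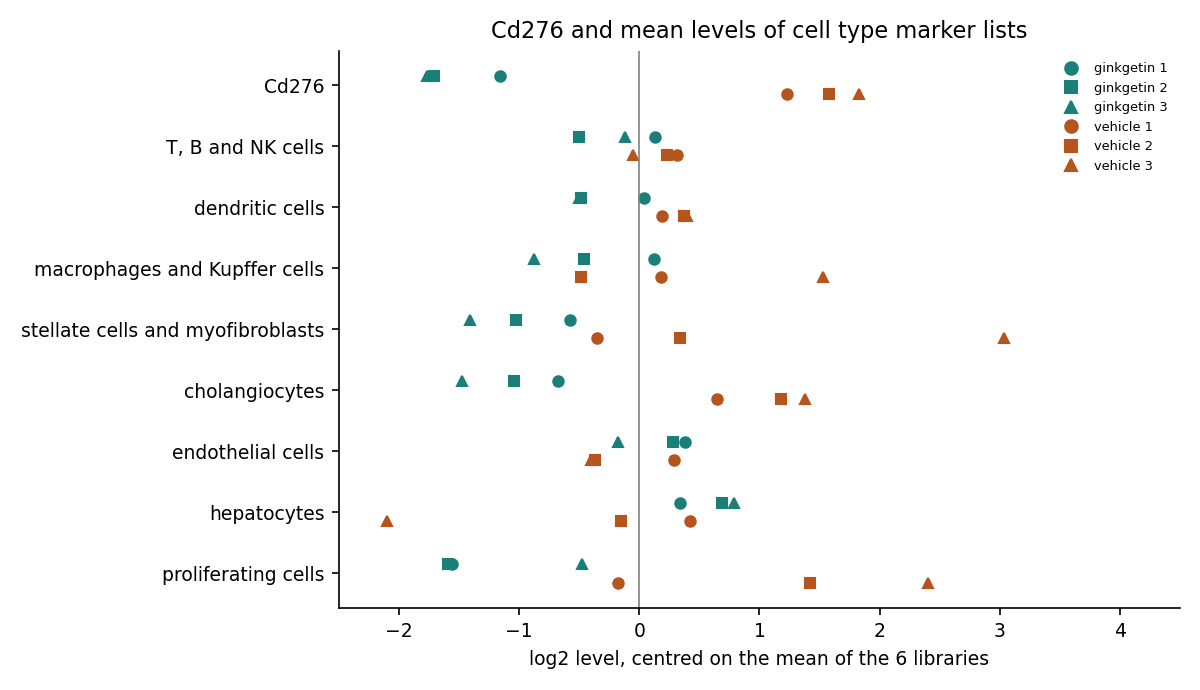
Log2 level of Cd276 and mean log2 level of each marker list in the 6 libraries, centred on the mean of the 6, on a linear axis, where each point is 1 library, with ginkgetin above vehicle in each row. Cd276 and the cholangiocyte, stellate cell, proliferation and dendritic cell lists separate the groups, and vehicle replicate 3 lies at 3.04 in the stellate cell list and at -2.10 in the hepatocyte list.

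The genes whose pattern over the 6 libraries was most like that of Cd276 were taken from 7060 named genes with a mean above the median of tested genes. Likeness was Pearson's r of log2(value + 1) over 6 libraries. Because Cd276 separates the groups, r measures mainly how cleanly a gene separates them too, and 169 genes (2.39%) had r above 0.9. The highest were Tmem106a (0.992), Klf3 (0.991), which encodes a Krüppel-like transcription factor, and Epcam (0.991), an adhesion protein of bile duct epithelium. Neurl3 (0.981), Ltbp1 (0.980), a latent TGF-beta binding protein, and Fhl2 (0.980), a LIM domain cofactor, followed. Nup205 (0.978), a nuclear pore protein, Anxa5 (0.977), annexin A5, Cyp4b1 (0.974), a cytochrome P450, and Rfx5 (0.973), a factor of MHC class II promoters, completed the 10. Tmem106a had 144, 96.0 and 101 normalized reads with ginkgetin and 291, 393 and 406 with vehicle (log2 fold change -1.67, SE 0.272). Log2 fold changes of the 10 ran from -3.32 for Fhl2 to -0.59 for Cyp4b1, so likeness in pattern did not mean a fall of the same size.

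The genes most opposite to Cd276 were Eif1ad (-0.997), Nup62 (-0.994), another nuclear pore protein, Atf4 (-0.993), the transcription factor of the integrated stress response, Fdps (-0.989), an enzyme of sterol synthesis, and Fxr1 (-0.988), an RNA-binding protein. Fdps had 2328, 2447 and 2725 normalized reads with ginkgetin and 1395, 1248 and 1042 with vehicle (log2 fold change 1.03, SE 0.264). Eif1ad (0.38) was at -0.14 with equal library totals, where the median of all tested genes was -0.53. Within the set, r with Cd276 was 0.82 for Pdcd1lg2 (on few reads), 0.81 for Vsir, 0.71 for Cd86, 0.32 for Cd80 and 0.14 for Havcr2. It was -0.10 for Lgals9, -0.56 for Cd274 and -0.78 for Icoslg.

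**Figure D5:**
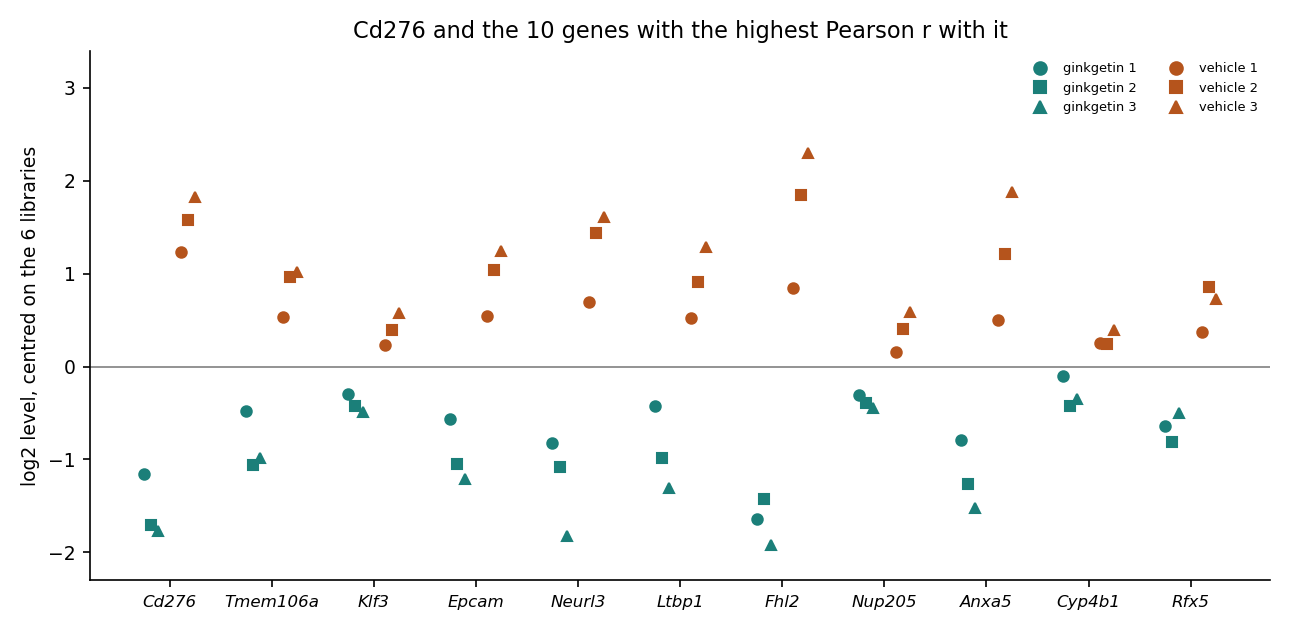
Log2 level of Cd276 and of the 10 genes with the highest Pearson r with it, centred on the mean of the 6 libraries, on a linear axis, where each point is 1 library, with ginkgetin left of vehicle. All 10 genes separate the groups with smaller steps than Cd276, except Fhl2, whose log2 fold change was -3.32.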

How the data were processed

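RNA was measured in 6 rat liver libraries, prepared with the SMARTER mRNA-Seq kit, per the labels' protocols. Per the submitters' processing notes, the build was mRatBN7.2. For the aligner, counter, annotation and strand setting, nothing is given in the sources used here. The deposited values are a signal, normalized read counts whose normalization is not named in the file. In each library 99.67% of values, divided by the smallest positive one, came out whole within 0.02, and whole reads were recovered by rounding, with 53 of 16209 rows not whole in some library. Libraries held 13372367 to 14933853 reads, and reads of overlapping genes or close paralogs may be shared.

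Genes were tested with limma 3.58.1 in R 4.3.3, using its trend and robust options, on log2(value + 1). It covered 14639 genes that reached a value of 1 in at least 3 libraries. Benjamini-Hochberg adjustment ran over all of them at 0.05. edgeR 4.0.16 and DESeq2 1.42.0 were run on the recovered reads as alternatives. The other alternatives were pseudocounts, filters, scalings, the replicate block and each library left out. The procedure was tested on simulated data, with the same spread parameter for all genes and no library standing apart. That simulation does not show how the test behaves with a library like vehicle replicate 3. Since separate animals are not stated, p-values reflect only the spread among these samples, possibly technical. No pair of libraries was a duplicate, with a chi-square per degree of freedom of at least 44.1. Genes at 0 with ginkgetin were set to 3 reads in each library as a floor, for counting error only.

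The members and the gene lists were chosen with earlier results of these data known. Named genes are the members and up to 4 genes with the smallest p per checkpoint, galectin or interferon list. The 10 genes most like Cd276 and the 5 least like it are also named. Others are named for their role as receptor, ligand or signal carrier, after their values were seen: Cd28, Treml2, Pdcd1, Fgl1, Nectin2, Lag3 and Irf1. Of the marker lists, levels of single genes are given only for Cd8b, Gzmb, Cd3g and Prf1. Results for 2 genes of the lists are not reported here.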

Additional observations from a re-analysis of the deposited data

How the results depend on the processing

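The log2 fold change of Cd276 lay between -3.61 (equal library totals) and -2.95 (without vehicle replicate 3) over the alternatives run. With equal library totals the median of all tested genes was itself -0.53. The limma adjusted p of Cd276 lay between 0.0122 and 0.259. It was 0.0507 with quantile scaling and 0.0535 with edgeR. Without a library it was 0.0122 and 0.0290 for vehicle replicates 1 and 3, and 0.102 to 0.259 for vehicle replicate 2 and the ginkgetin replicates. The causes were not tested. Same-numbered libraries did not deviate together (r = -0.16, 0.03 and -0.21), and with the replicate block Cd276 had an adjusted p of 0.212, 0 genes passed and 0 members passed.

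The number of genes past an adjusted p of 0.05 was 2, and it was 5 with a pseudocount of 4, 1 with quantile scaling, 94 with equal library totals, 0 with edgeR and 1380 with DESeq2. With 1 library left out it ran from 0 to 696 (84 without vehicle replicate 3). At an unadjusted p under 0.05, limma gave 2963 genes and edgeR 2915. Of the members, 1 passed, against 0 with quantile scaling or edgeR, 2 with DESeq2, and 0 to 1 with a library left out. Members lower at an unadjusted p under 0.05 numbered 2, and 1 to 3 with a library left out. Higher members numbered 1, then 0 with quantile scaling or equal library totals, and 0 to 1 with a library left out. The log2 fold change of Cd276 minus the median log2 fold change of the other members was -2.81, and -3.04 with quantile scaling. It was -2.94 to -2.53 when a library was left out.

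Signs turned for Cd80 (0.28 with quantile scaling, and -0.71 to 0.10 with a library left out) and for Havcr2 (0.46, and -0.63 to 0.37). For Lgals9 they turned with quantile scaling (-0.18), edgeR (-0.21) and DESeq2 (-0.20), with -0.63 to 0.41 when a library was left out. Equal library totals put Lgals9 at -0.48 and Eif1ad at -0.14, where the median of all tested genes was -0.53. Depth limits Pdcd1lg2 most among the members, with 2 reads in the ginkgetin libraries and 17 in the vehicle libraries.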

Other observations

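Single genes of the T, B and NK cell list differed in direction. Of its 20 tested genes, 15 were lower in mean with ginkgetin and 5 higher. The groups did not overlap in 4 lower genes and 1 higher gene, against 16.1% and 11.4% of tested genes. Cd8b, with the smallest p of the list, had 9.95, 5.78 and 9.90 normalized reads with ginkgetin and 16.6, 22.5 and 75.5 with vehicle. Gzmb, which encodes granzyme B, had 2.21, 5.78 and 6.19 normalized reads with ginkgetin and 1.19, 0.832 and 0 with vehicle. Prf1, which encodes perforin and is named here after its values were seen, had 226, 118 and 136 with ginkgetin and 129, 78.2 and 28.2 with vehicle. Cd3g, a chain of the T cell receptor complex, had 22.1, 9.26 and 39.6 with ginkgetin and 59.3, 59.9 and 45.4 with vehicle. The Gzmb values rest on 12 reads with ginkgetin and 2 with vehicle, and the groups overlapped in Prf1. None of these genes passed an adjusted p of 0.05 in limma or edgeR, and the difference in direction was not tested.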
